A study of Rattus norvegicus with 12 samples.

Results

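Aggrecan, versican and the genes that make, bind and cut hyaluronan were described across 12 RNA-seq libraries of rat cells of the nucleus pulposus, the soft centre of an intervertebral disc. The 10 genes were taken by their symbols from a deposited table of 21071 genes. They were the proteoglycan genes Acan and Vcan, the link protein genes Hapln1 and Hapln3, the hyaluronan synthase genes Has1, Has2 and Has3, the hyaluronan receptor gene Cd44 and the hyaluronidase genes Hyal1 and Hyal2. All 10 were among the 15650 genes with enough counts to be tested.

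The libraries fell into 4 groups of 3. The Erastin+miR-Exo group received erastin together with exosomes from nucleus pulposus progenitor cells (NPPC) in which miR-221-3p was overexpressed, and the miR-Exo group received these exosomes without erastin. The Erastin+NPPC-Exo group received erastin together with exosomes from progenitors without this overexpression, and the NPPC-Exo group received this second kind of exosome alone. Erastin blocks cystine import and brings on ferroptosis, a death by iron-dependent lipid peroxidation. It was given at 0.1 to 5 µM for 48 h, with no dose stated for a single library, and the table calls these libraries Model where the sample titles name erastin. NPPC-Exo were added at 50 µg/mL, and no separate dose is stated for miR-Exo. Cells of every group received exosomes and were grown with serum, so cells without exosomes are not among the groups. The sources used here give no strain, age or number of rats, and do not say whether replicate libraries were separate cultures. The p-values therefore measure the spread between these libraries, which may be technical.

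Hyaluronan is a long unbranched sugar chain that synthases in the plasma membrane extrude into the matrix. Aggrecan and versican are large chondroitin sulfate proteoglycans, the hyalectans, which bind hyaluronan through their globular ends, and link proteins lock that bond. The aggregates of aggrecan hold the water that lets the nucleus pulposus carry load, while versican is the hyalectan of looser and more cellular matrices. CD44 is the main cell-surface receptor of hyaluronan. HYAL2 cuts the long chains at the cell surface, and HYAL1 cuts the fragments further in lysosomes.

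Depth ranged from 54616827 to 68865720 counts per library. The precursor of the overexpressed microRNA, Mir221, was at 23.9 to 24.4 CPM, counts relative to the scaled library total, in the Erastin+miR-Exo libraries, 26.4 to 29.1 in miR-Exo, 0.318 to 0.411 in Erastin+NPPC-Exo and 0.303 to 0.320 in NPPC-Exo, so the exosome labels and the count of this gene went together. Of 15 nucleus pulposus marker names, 9 were matched in the table. Their summed level was 38.0 to 47.1 in Erastin+miR-Exo, 249 to 318 in miR-Exo, 72.5 to 82.3 in Erastin+NPPC-Exo and 236 to 353 in NPPC-Exo, in FPKM (fragments adjusted for gene length and for depth) scaled by the library factors of the fit, which is the unit of the levels below. Such a sum mostly follows its most abundant genes. Of 8 of these markers tested, 2 rose and 4 fell with erastin under miR-Exo, and 3 rose and 3 fell under NPPC-Exo. Krt18 was at or near 0 in every group, with at most 16 counts in a library, and Krt19 and Tbxt were not matched and not analysed here. Summed over 10 fibroblast and annulus markers, the level was 2609 to 3270 in Erastin+miR-Exo, 10040 to 11406 in miR-Exo, 4087 to 4739 in Erastin+NPPC-Exo and 10704 to 11784 in NPPC-Exo. Col2a1 and Pax1 were detected in all 4 groups.

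The mature sequence of the overexpressed microRNA is shown because the exosomes are named for it. It comes from RefSeq (GRCr8, chrX:6023246-6023268, plus strand), runs 5′ to 3′, and has its seed, bases 2 to 8, in capitals. Whether any of the 10 transcripts holds a site for this seed was not analysed here.
rno-miR-221-3p: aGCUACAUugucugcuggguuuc

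Acan and Vcan moved in opposite directions with erastin under both kinds of exosome. Acan, which encodes aggrecan (ENSRNOG00000028992), was at 109, 103 and 107 scaled FPKM in the Erastin+miR-Exo libraries, against 981, 833 and 902 in the miR-Exo libraries. In the Erastin+NPPC-Exo libraries it was at 135, 114 and 127, against 904, 897 and 846 in the NPPC-Exo libraries. All libraries with erastin lay far below all those without it. The log2 fold change with erastin was -3.09 ± 0.07 under miR-Exo (SE, adjusted p = 3.11e-12) and -2.81 ± 0.07 under NPPC-Exo (adjusted p = 1.02e-11). By mean scaled FPKM over all genes of the table, Acan ranked 487 in Erastin+miR-Exo, 47 in miR-Exo, 416 in Erastin+NPPC-Exo and 53 in NPPC-Exo. In such bulk samples, fewer cells of a type and less RNA per cell cannot be told apart.

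Vcan, which encodes versican (ENSRNOG00000029212), was at 208, 206 and 182 scaled FPKM in the Erastin+miR-Exo libraries, against 28.1, 28.6 and 31.6 in the miR-Exo libraries. It was at 94.3, 112 and 104 in the Erastin+NPPC-Exo libraries, against 28.9, 29.5 and 25.9 in the NPPC-Exo libraries. The highest values were those of Erastin+miR-Exo, Erastin+NPPC-Exo lay between, and both groups without erastin overlapped at the bottom. The log2 fold change with erastin was 2.76 ± 0.08 under miR-Exo (SE, adjusted p = 1.15e-11) and 1.88 ± 0.07 under NPPC-Exo (adjusted p = 3.50e-10). By level Vcan ranked 223 in Erastin+miR-Exo, 2360 in miR-Exo, 529 in Erastin+NPPC-Exo and 2509 in NPPC-Exo. Versican has several splice forms in mammals, and the table holds a single value for the gene, so the forms are not told apart.

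**Figure D1:**
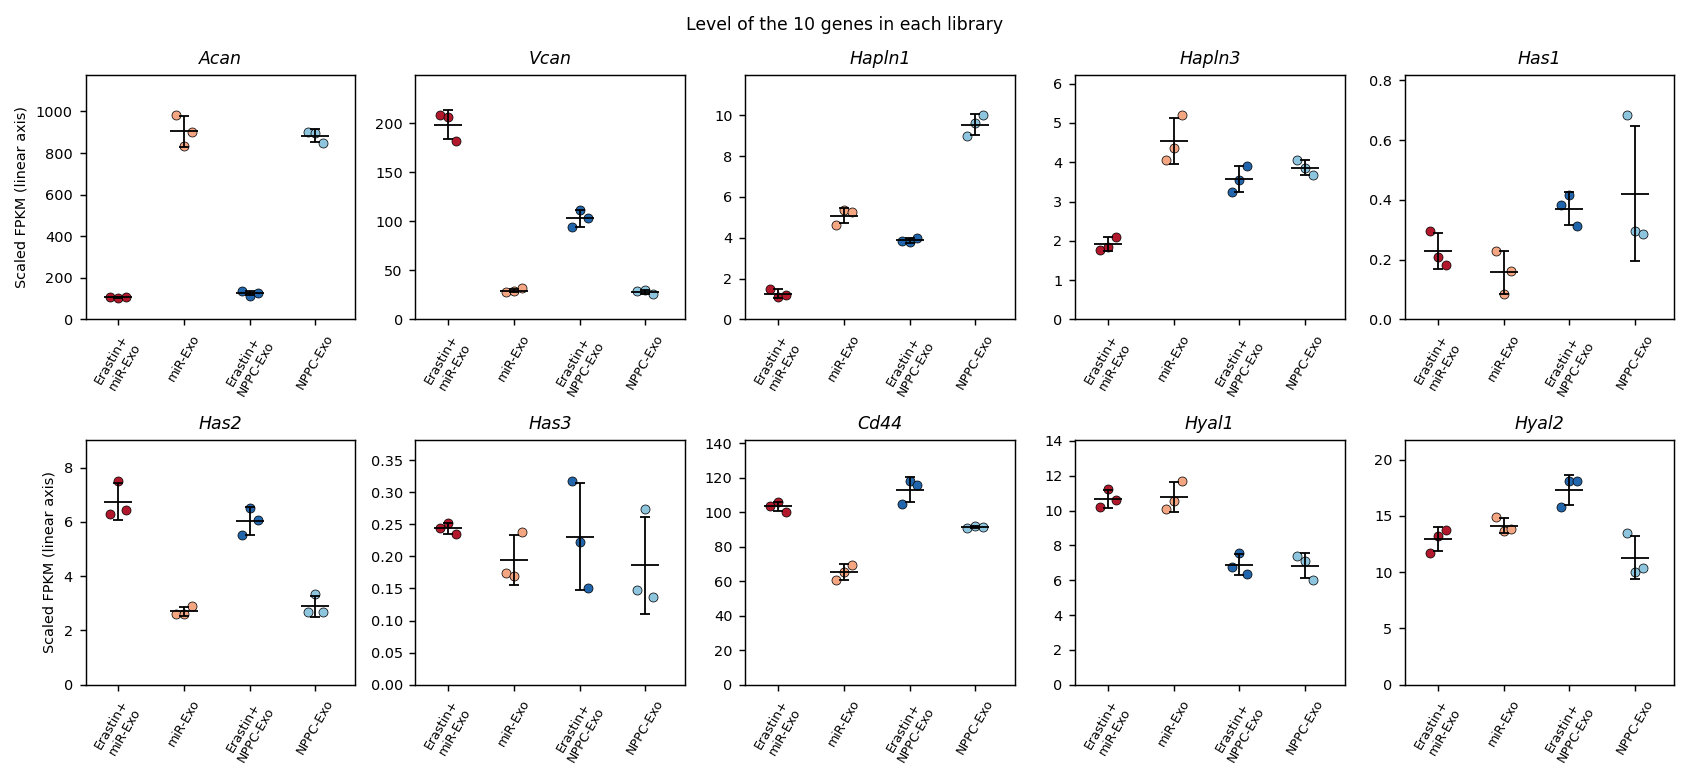
Level of each of the 10 genes in each library, as scaled FPKM on a linear axis that starts at 0, for Erastin+miR-Exo, miR-Exo, Erastin+NPPC-Exo and NPPC-Exo. Points are libraries and bars are the mean ± SD (n = 3 each). Acan averaged 106 and 125 in the groups with erastin, Vcan averaged 199 and 103 there, and the points of Has1 and Has3 are widely spread.

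The promoters of both genes are printed 5′ to 3′ on the gene's own strand, 250 bases before to 50 bases after the start site in RefSeq, since their levels changed most among the 10 genes. Of the 10 genes 7 had such an entry. Capitals mark matches to 8 motifs searched on both strands, which were AP-1 (TGANTCA), NF-kB (by name), CRE (TGACGTCA), the antioxidant response element (TGACNNNGC), ATF4 (TGATGNAA), SOX (ACAATG), the GC box (GGGCGG) and the TATA box (TATAAA). The Acan window holds an NF-kB match from 94 to 85 bases before the start, read on either strand, and 3 GC boxes, of which a pair overlaps in the first capital run after it. The Vcan window, that of the first of its listed starts, holds a GC box.
Acan promoter, GRCr8 chr1:142390701-142391000, plus strand: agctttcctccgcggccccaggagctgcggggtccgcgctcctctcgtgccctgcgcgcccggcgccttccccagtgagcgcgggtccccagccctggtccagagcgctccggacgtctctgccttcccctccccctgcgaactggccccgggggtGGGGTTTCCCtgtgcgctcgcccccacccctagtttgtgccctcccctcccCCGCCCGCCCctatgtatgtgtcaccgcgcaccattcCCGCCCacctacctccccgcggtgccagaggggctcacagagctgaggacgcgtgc
Vcan promoter, GRCr8 chr2:22595906-22596205, minus strand: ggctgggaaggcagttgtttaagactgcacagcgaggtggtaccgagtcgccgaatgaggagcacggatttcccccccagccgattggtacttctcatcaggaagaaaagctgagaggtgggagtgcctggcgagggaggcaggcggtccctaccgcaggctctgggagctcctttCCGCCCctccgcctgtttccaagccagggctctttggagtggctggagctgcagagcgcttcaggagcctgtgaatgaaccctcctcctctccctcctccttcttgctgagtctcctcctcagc

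Of the 33469 rat promoters of this length, 4.18% held the NF-kB motif and 33.1% the GC box. The other shares were 7.33% for AP-1, 1.83% for CRE, 12.1% for the antioxidant response element, 3.98% for ATF4, 13.2% for the SOX motif and 14.2% for the TATA box. Acan's window was 73.0% G or C with 28 CpG, and Vcan's was 61.0% with 12 CpG, beside medians of 51.7% and 7 over all these promoters. These matches describe letters and are not measured binding sites.

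Within a library the ratio of Acan to Vcan does not depend on how libraries are scaled. This ratio averaged 0.536 ± 0.0451 in Erastin+miR-Exo, 30.8 ± 3.50 in miR-Exo, 1.22 ± 0.203 in Erastin+NPPC-Exo and 31.4 ± 1.12 in NPPC-Exo (SD, n = 3 each). Vcan was 65.1 ± 1.89% of the sum of both transcripts per kilobase in Erastin+miR-Exo and 3.17 ± 0.328% in miR-Exo. Its share was 45.2 ± 4.15% in Erastin+NPPC-Exo and 3.08 ± 0.106% in NPPC-Exo. By FPKM, Vcan thus exceeded Acan in all 3 Erastin+miR-Exo libraries, and the reverse held in the other 9. The Erastin+NPPC-Exo ratios were 1.02 to 1.43. By counts not adjusted for gene length, Vcan was above Acan in Erastin+NPPC-Exo too, at a mean of 1249 CPM against 912. The order in that group therefore depends on the gene lengths used. The gain of Vcan did not make up the loss of Acan in level, since the sum of both was 305 ± 14.9 scaled FPKM in Erastin+miR-Exo, 935 ± 73.8 in miR-Exo, 229 ± 2.52 in Erastin+NPPC-Exo and 910 ± 33.2 in NPPC-Exo.

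The link protein genes were lower in Erastin+miR-Exo than in any other group. Hapln1 (ENSRNOG00000032002), the link protein of cartilage, was at 1.49, 1.08 and 1.22 scaled FPKM in the Erastin+miR-Exo libraries, against 4.65, 5.35 and 5.25 in miR-Exo. It was at 3.85, 3.78 and 4.01 in the Erastin+NPPC-Exo libraries, against 9.00, 9.64 and 10.0 in NPPC-Exo. No pair of groups overlapped, and NPPC-Exo was the highest. With erastin the log2 fold change was -2.00 ± 0.11 under miR-Exo (SE, adjusted p = 4.46e-09) and -1.29 ± 0.10 under NPPC-Exo (adjusted p = 2.24e-07).

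Hapln3 (ENSRNOG00000022321), a link protein with a wider tissue range, was at 1.76, 1.85 and 2.11 scaled FPKM in the Erastin+miR-Exo libraries, against 4.06, 4.37 and 5.19 in miR-Exo. It was at 3.25, 3.56 and 3.90 in Erastin+NPPC-Exo, against 4.05, 3.85 and 3.67 in NPPC-Exo. Erastin+miR-Exo stood below the rest, and the 2 groups with NPPC-Exo overlapped. The fall with erastin under miR-Exo was -1.24 ± 0.14 on the log2 scale (SE, adjusted p = 8.79e-06), while under NPPC-Exo the value was -0.11 ± 0.14 and was not called. The ratio of Hapln3 to Hapln1 was 1.54 ± 0.309 in Erastin+miR-Exo, 0.894 ± 0.0875 in miR-Exo, 0.920 ± 0.0672 in Erastin+NPPC-Exo and 0.406 ± 0.0421 in NPPC-Exo (SD, n = 3 each).

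The ratio of Vcan, the hyalectan that rose, to Hapln1 was higher with erastin. There were 160 ± 27.3 Vcan transcripts per Hapln1 transcript in Erastin+miR-Exo and 5.81 ± 0.395 in miR-Exo, per length. The ratio was 26.7 ± 2.63 in Erastin+NPPC-Exo and 2.95 ± 0.323 in NPPC-Exo (SD, n = 3 each). The Hapln1 promoter is shown for comparison with those of Acan and Vcan. It holds none of the 8 motifs, which says only that these letters are not in this window, and is 53.7% G or C with 10 CpG.
Hapln1 promoter, GRCr8 chr2:22366717-22367016, plus strand: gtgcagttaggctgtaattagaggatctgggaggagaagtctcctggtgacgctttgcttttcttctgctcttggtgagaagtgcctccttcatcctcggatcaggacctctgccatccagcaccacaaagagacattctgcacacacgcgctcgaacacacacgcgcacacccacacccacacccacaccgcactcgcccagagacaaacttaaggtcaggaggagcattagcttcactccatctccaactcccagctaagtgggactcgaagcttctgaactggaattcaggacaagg

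**Figure D2:**
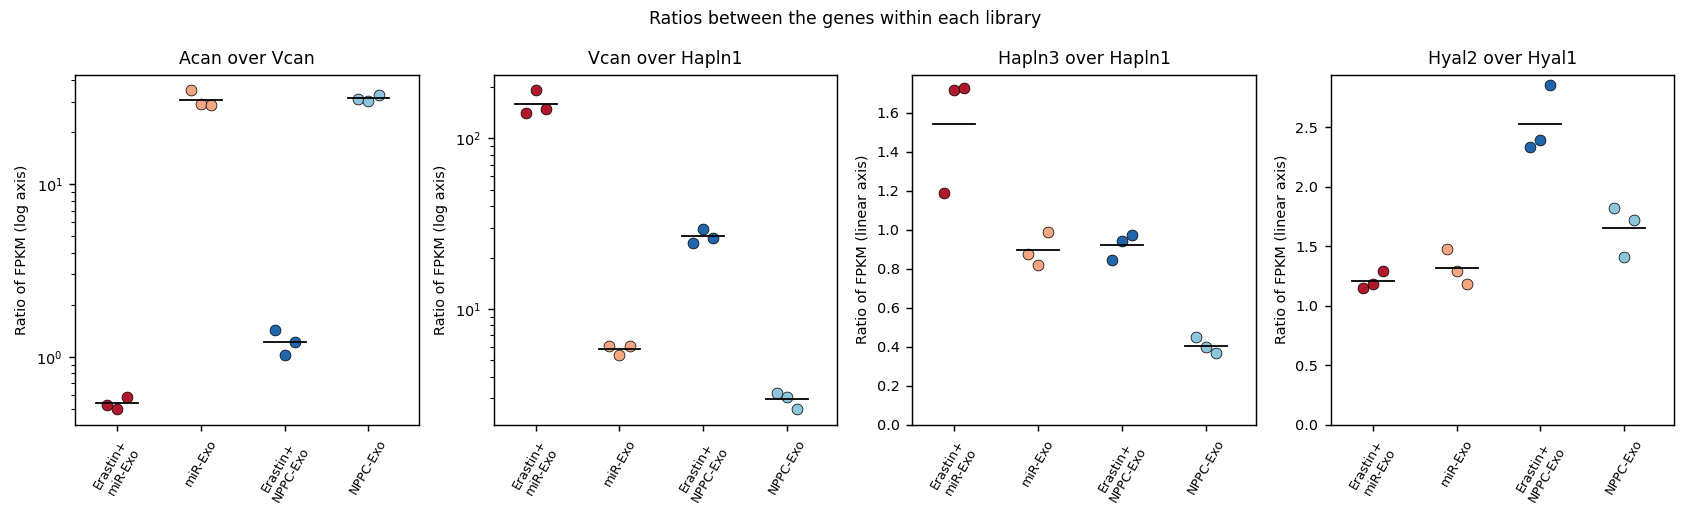
Ratios between FPKM values of pairs of the genes within each library, for Erastin+miR-Exo, miR-Exo, Erastin+NPPC-Exo and NPPC-Exo. Points are libraries and lines are means. The axes of Acan over Vcan and Vcan over Hapln1 are logarithmic, and those of Hapln3 over Hapln1 and Hyal2 over Hyal1 are linear and start at 0. Acan over Vcan averaged 0.536 in Erastin+miR-Exo and 1.22 in Erastin+NPPC-Exo, against 30.8 in miR-Exo and 31.4 in NPPC-Exo.

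Among the synthases, Has2 rose with erastin. Has2 (ENSRNOG00000004854), the synthase of most cultured connective tissue cells, was at 6.28, 7.52 and 6.43 scaled FPKM in the Erastin+miR-Exo libraries, against 2.61, 2.62 and 2.91 in miR-Exo. It was at 5.51, 6.51 and 6.08 in the Erastin+NPPC-Exo libraries, against 2.66, 3.34 and 2.67 in NPPC-Exo. Every library with erastin lay above every library without it, and the kinds of exosome overlapped at either level. The log2 fold change was 1.32 ± 0.11 under miR-Exo (SE, adjusted p = 3.66e-07) and 1.07 ± 0.11 under NPPC-Exo (adjusted p = 3.07e-06). Has2 made up 93.4 ± 1.17% of the summed level of the 3 synthases in Erastin+miR-Exo, 88.6 ± 2.35% in miR-Exo, 90.9 ± 2.12% in Erastin+NPPC-Exo and 82.7 ± 5.60% in NPPC-Exo (SD, n = 3 each).

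Has1 (ENSRNOG00000010994) and Has3 (ENSRNOG00000059362) stayed at low levels, and neither was called in any comparison. Has1 had 44, 32 and 27 counts in Erastin+miR-Exo and 30, 11 and 23 in miR-Exo. It had 50, 61 and 46 counts in Erastin+NPPC-Exo and 85, 35 and 35 in NPPC-Exo. Its first NPPC-Exo library thus stood above the other 2, and the log2 fold change of miR-Exo over NPPC-Exo, -1.39 ± 0.48 (SE, adjusted p = 0.0886), was -0.85 without it. Has3 had 119, 125 and 110 counts in Erastin+miR-Exo, 72, 71 and 112 in miR-Exo, 139, 105 and 72 in Erastin+NPPC-Exo and 61, 106 and 53 in NPPC-Exo. All 4 groups of Has3 overlapped. The span of Has3 overlaps that of Chtf8 on the opposite strand, which reached 9331 counts. Since the strand setting of the counting is not given, it is not known to which gene reads in the shared stretch were assigned. How many reads fall in that stretch was not measured.

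Cd44 (ENSRNOG00000006094) rose with erastin and was lowest with miR-Exo alone. It was at 104, 106 and 100.3 scaled FPKM in the Erastin+miR-Exo libraries, against 60.4, 65.6 and 69.5 in miR-Exo. In the Erastin+NPPC-Exo libraries it was at 105, 118 and 116, against 90.6, 92.0 and 91.7 in NPPC-Exo. The 2 groups with erastin overlapped at the top, NPPC-Exo followed, and miR-Exo lay apart at the bottom. The log2 fold change with erastin was 0.67 ± 0.05 under miR-Exo (SE, adjusted p = 2.94e-07) and 0.31 ± 0.05 under NPPC-Exo (adjusted p = 0.000381). Scaled by library size alone, without trimmed means, the second value was 0.59. Per transcript of aggrecan and versican together there were 0.339 ± 0.0106 Cd44 transcripts in Erastin+miR-Exo, 0.0702 ± 0.00897 in miR-Exo, 0.494 ± 0.0337 in Erastin+NPPC-Exo and 0.101 ± 0.00408 in NPPC-Exo (SD, n = 3 each). The Cd44 promoter is printed as that of the receptor gene whose level changed in both erastin comparisons. Its capitals mark a match to the antioxidant response element on the opposite strand, 108 to 100 bases before the start, and the window is 60.3% G or C with 13 CpG.
Cd44 promoter, GRCr8 chr3:109699375-109699674, minus strand: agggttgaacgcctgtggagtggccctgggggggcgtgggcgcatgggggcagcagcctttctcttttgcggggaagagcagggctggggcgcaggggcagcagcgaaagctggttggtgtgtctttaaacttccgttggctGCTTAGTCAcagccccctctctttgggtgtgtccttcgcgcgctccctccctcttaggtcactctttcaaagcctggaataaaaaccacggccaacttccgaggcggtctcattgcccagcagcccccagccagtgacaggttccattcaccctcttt

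Leukocytes carry much CD44, so a list of 10 leukocyte markers was read beside it, of which 5 were matched. Their summed level was 1.53 to 2.45 scaled FPKM in Erastin+miR-Exo, 0.857 to 1.19 in miR-Exo, 0.804 to 1.31 in Erastin+NPPC-Exo and 0.433 to 0.683 in NPPC-Exo. Adgre1, the F4/80 gene of macrophages, was at 0 in 3 groups and had 8 counts in 1 NPPC-Exo library. Cd68, a lysosomal glycoprotein, was the member that rose, by 1.12 under miR-Exo and 1.09 under NPPC-Exo on the log2 scale. Fcer1g was at 0 in miR-Exo, and Csf1r and Itgam had at most 34 and 55 counts in a library. The part of such cells in the result was not tested.

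Of the hyaluronidase genes, Hyal1 differed between the kinds of exosome, and Hyal2 rose with erastin under NPPC-Exo. Hyal1 (ENSRNOG00000015858) was at 10.2, 11.2 and 10.6 scaled FPKM in the Erastin+miR-Exo libraries, against 6.78, 7.55 and 6.35 in Erastin+NPPC-Exo. Without erastin it was at 10.1, 10.5 and 11.7 in miR-Exo, against 7.39, 7.08 and 6.03 in NPPC-Exo. All 6 libraries with miR-Exo lay above all 6 with NPPC-Exo. The log2 fold change of miR-Exo over NPPC-Exo was 0.64 ± 0.10 with erastin (SE, adjusted p = 0.000470) and 0.66 ± 0.10 without it (adjusted p = 0.00150). For erastin itself the values were -0.0046 ± 0.10 under miR-Exo and 0.02 ± 0.10 under NPPC-Exo, and neither was called. Under library size alone both became 0.30 and were called.

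Hyal2 (ENSRNOG00000031420) was at 11.7, 13.3 and 13.8 scaled FPKM in the Erastin+miR-Exo libraries, against 14.9, 13.6 and 13.9 in miR-Exo. It was at 15.8, 18.1 and 18.1 in Erastin+NPPC-Exo, against 13.5, 10.0 and 10.4 in NPPC-Exo. Erastin+NPPC-Exo stood above the other 3 groups, and the groups with miR-Exo overlapped each other. The rise with erastin under NPPC-Exo was 0.62 ± 0.11 on the log2 scale (SE, adjusted p = 0.000472), and the value under miR-Exo was -0.12 ± 0.11, which was not called. The first NPPC-Exo library stood above the other 2 for this gene. Without it the rise with erastin was 0.77, and miR-Exo over NPPC-Exo without erastin was 0.48 with adjusted p = 0.00718, against 0.33 ± 0.11 (SE) with adjusted p = 0.0845 for all libraries. With same-numbered miR-Exo and NPPC-Exo libraries paired, a pairing picked from these same data, it was 0.35 in a fit of these 6 (adjusted p = 0.0488). The ratio of Hyal2 to Hyal1 was 1.21 ± 0.0766 in Erastin+miR-Exo, 1.32 ± 0.150 in miR-Exo, 2.53 ± 0.288 in Erastin+NPPC-Exo and 1.65 ± 0.214 in NPPC-Exo (SD, n = 3 each).

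Counted over the set, erastin under miR-Exo raised 3 of the 10 genes (Vcan, Has2 and Cd44) and lowered 3 (Acan, Hapln1 and Hapln3). Of all genes tested, 49.1% were called in that comparison, 24.7% higher and 24.4% lower, with 50.4% of the calls higher. Under NPPC-Exo erastin raised 4 (Vcan, Has2, Cd44 and Hyal2) and lowered 2 (Acan and Hapln1), beside 43.6% of all genes called, 21.5% higher and 22.1% lower, with 49.3% of the calls higher. The share called among the 10 is near that background. The median log2 fold change of the 10 was 0.16 in each comparison, beside 0.03 over all genes under miR-Exo and 0.02 under NPPC-Exo. With library size alone the median of all genes moved to 0.33 under miR-Exo and 0.30 under NPPC-Exo, and 76.4% of the calls under miR-Exo and 77.8% under NPPC-Exo were higher. The calls of the genes named in this paragraph kept their direction under that scaling.

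**Figure D3:**
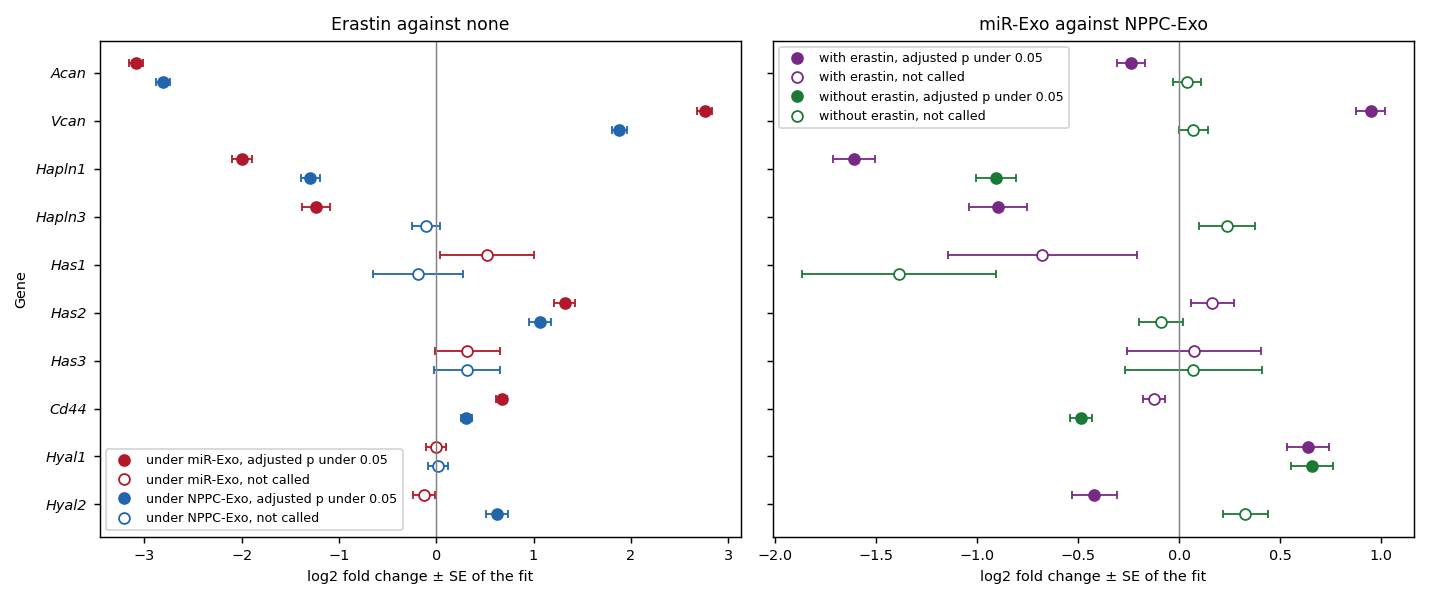
Log2 fold changes of the 10 genes with the SE of the fit, for erastin against none under miR-Exo and NPPC-Exo on the left and for miR-Exo against NPPC-Exo with and without erastin on the right. Filled points have an adjusted p under 0.05. Acan at -3.09 and -2.81 and Vcan at 2.76 and 1.88 lie farthest from 0 on the left, and Hapln1 at -1.61 with erastin lies farthest on the right.

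The overexpression of miR-221-3p in the progenitors was read from miR-Exo against NPPC-Exo. With erastin, 2 of the 10 genes were higher under miR-Exo (Vcan and Hyal1) and 4 were lower (Hapln1, Hapln3, Hyal2 and Acan), beside 31.3% of all genes called, 15.6% higher and 15.8% lower. Without erastin, Hyal1 was higher and Hapln1 and Cd44 were lower, beside 10.7% of all genes called, 4.15% higher and 6.52% lower. Of the calls over all genes 49.7% were higher with erastin and 38.9% without it, and under library size alone 68.6% were higher with erastin and 68.7% without it. With same-numbered libraries paired, 49.0% of the calls without erastin were higher. For Hapln1 the log2 fold change was -1.61 ± 0.10 with erastin (SE, adjusted p = 2.84e-07) and -0.91 ± 0.10 without it (adjusted p = 0.000106). Vcan was 0.95 ± 0.07 higher with erastin (adjusted p = 1.23e-06), and its value without erastin was 0.07 ± 0.07. Hapln3 was lower with erastin, at -0.90 ± 0.14 (adjusted p = 0.000400), and Hyal2 at -0.42 ± 0.11 (adjusted p = 0.0115). For Cd44 the fall without erastin was -0.49 ± 0.05 (adjusted p = 0.000122), and its value with erastin, -0.12 ± 0.05, was not called (adjusted p = 0.101).

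Acan differed little between the kinds of exosome beside its change with erastin. It was lower in Erastin+miR-Exo than in Erastin+NPPC-Exo with a log2 fold change of -0.24 ± 0.07 (SE, adjusted p = 0.0179), and this call was lost without the first Erastin+NPPC-Exo library (-0.20, adjusted p = 0.0548) and under library size alone (-0.13, adjusted p = 0.120). Without erastin, Acan in miR-Exo over NPPC-Exo was 0.04 ± 0.07. Has2 was 0.16 ± 0.11 with erastin and -0.09 ± 0.11 without it, and neither value was called. In the whole set Hyal1 and Hapln1 were the genes called the same way with and without erastin.

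Whether erastin changed the genes differently under the kinds of exosome was tested as an interaction, the change under miR-Exo minus that under NPPC-Exo. It was called for 5 of the 10 genes, 2 higher and 3 lower, beside 12.8% of all genes called, 5.81% higher and 7.01% lower. For Vcan the rise was larger under miR-Exo by 0.88 ± 0.10 on the log2 scale (SE, adjusted p = 0.000431), and for Cd44 by 0.36 ± 0.08 (adjusted p = 0.00958). The interaction was -1.13 ± 0.20 for Hapln3 (adjusted p = 0.00360) and -0.70 ± 0.14 for Hapln1 (adjusted p = 0.00815). For both link proteins the change with erastin was more negative under miR-Exo. The interaction was -0.75 ± 0.16 for Hyal2 (adjusted p = 0.00941), the gene that rose under NPPC-Exo. For Acan it was -0.28 ± 0.10 (adjusted p = 0.0777), for Has2 0.25 ± 0.15 (adjusted p = 0.311), and for Hyal1 -0.02 ± 0.15, none of them called. The Acan interaction was called with DESeq2 (adjusted p = 0.0347), while that of Hapln1 was lost with limma on log2(FPKM + 1) (-0.36, adjusted p = 0.0789).

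Of the 10 genes, 6 lie in neighbouring pairs. In the RefSeq annotation of GRCr8 no gene lies between Acan and Hapln3 on chromosome 1, between Vcan and Hapln1 on chromosome 2, or between Hyal2 and Hyal1 on chromosome 8. The proteoglycan and link protein of a pair lie on opposite strands, and the hyaluronidases on the same strand. With erastin Vcan rose and Hapln1 fell under both kinds of exosome. Acan and Hapln3 both fell under miR-Exo, while under NPPC-Exo Acan fell and Hapln3 was not called. Hyal2 rose with erastin under NPPC-Exo, where Hyal1 was not called.

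The genes most like 4 of the 10 in pattern were sought among 10125 genes by the root mean square difference of centred log2 CPM over the 12 libraries, which share their groups. Nearest to Acan was Cspg4, which encodes the NG2 chondroitin sulfate proteoglycan, at a difference of 0.137. Cspg4 was at 107 ± 11.3 CPM in Erastin+miR-Exo, 812 ± 37.4 in miR-Exo, 102 ± 4.00 in Erastin+NPPC-Exo and 812 ± 48.0 in NPPC-Exo (SD, n = 3 each). Atp2b4, a calcium pump gene, and Hcn4, a channel gene, followed at 0.147 and 0.154. For Vcan the nearest were Klhl41 at 0.123, Cd55 at 0.142 and Pla1a at 0.173. For Has2 they were Fanca at 0.113, Phip at 0.115 and Adcy2 at 0.116. For Cd44 they were Hnrnpr at 0.0891, Grk6 at 0.0940 and Sulf1, an extracellular sulfatase gene, at 0.0960.

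The proteases that cut aggrecan and versican were read next. Of the 7 genes of this ADAMTS list, 4 rose and 2 fell with erastin under miR-Exo, and 5 rose and 2 fell under NPPC-Exo, beside 49.1% of all genes called under miR-Exo and 43.6% under NPPC-Exo. Adamts8 rose most, with a log2 fold change of 4.19 ± 0.13 under miR-Exo and 4.69 ± 0.14 under NPPC-Exo (SE). Adamts4, an aggrecanase, rose by 1.35 ± 0.17 under miR-Exo and 1.24 ± 0.17 under NPPC-Exo. Adamts5, the other main aggrecanase, rose by 0.78 ± 0.08 under miR-Exo and 0.25 ± 0.08 under NPPC-Exo. Adamts9 fell at -1.09 ± 0.08 under miR-Exo and -1.57 ± 0.08 under NPPC-Exo. Adamts1 fell at -0.36 ± 0.06 under miR-Exo and -0.92 ± 0.06 under NPPC-Exo. These were the 2 genes of the list that fell, and the list was not divided by which proteoglycan each enzyme cuts. The list did not move in 1 direction, and its median was 0.73 under miR-Exo and 0.77 under NPPC-Exo.

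Sox9, the main activator of the aggrecan gene in cartilage, fell with erastin, with log2 fold changes of -2.50 ± 0.21 under miR-Exo (SE, adjusted p = 3.58e-07) and -1.38 ± 0.20 under NPPC-Exo (adjusted p = 6.64e-05). Its interaction was -1.12 ± 0.28 (adjusted p = 0.0205). Of its partners, Sox5 rose by 0.71 ± 0.16 and Sox6 fell at -0.57 ± 0.20 under miR-Exo. Under NPPC-Exo the values were 0.32 ± 0.16 for Sox5 and -0.17 ± 0.19 for Sox6, and neither was called. The interaction was called for Sox9 alone of these 3 genes. Over all genes tested, 49.1% were called with erastin under miR-Exo and 43.6% under NPPC-Exo.

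Aggrecan and versican carry chondroitin sulfate chains. Of 13 genes that build these chains, 1 rose and 7 fell under miR-Exo, and 1 rose and 5 fell under NPPC-Exo, with medians of -0.34 under miR-Exo and -0.24 under NPPC-Exo. The share that fell in all genes tested was 24.4% under miR-Exo and 22.1% under NPPC-Exo, and 49.1% and 43.6% were called in either direction. Chsy3, a chain-extending synthase, rose by 0.86 ± 0.08 under miR-Exo and 0.59 ± 0.08 under NPPC-Exo on the log2 scale (SE). Csgalnact1, which starts the chondroitin chain, fell at -0.53 ± 0.07 under miR-Exo and -0.96 ± 0.07 under NPPC-Exo. Of 14 sulfation genes tested, 3 rose and 5 fell in each comparison, with medians of -0.11 under miR-Exo and 0.0092 under NPPC-Exo. Ust, which sulfates uronic acid, fell at -1.59 ± 0.13 under miR-Exo and -1.55 ± 0.13 under NPPC-Exo. Slc26a2, the sulfate transporter, rose by 1.19 ± 0.09 under miR-Exo and 0.59 ± 0.09 under NPPC-Exo, and Chst3 fell at -1.85 ± 0.16 under miR-Exo and -0.82 ± 0.15 under NPPC-Exo.

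Hyaluronan and chondroitin are both made from UDP-sugars. Ugdh, the dehydrogenase that makes UDP-glucuronic acid, rose by 1.45 ± 0.05 under miR-Exo (SE, adjusted p = 1.57e-10) and 1.06 ± 0.05 under NPPC-Exo (adjusted p = 3.24e-09) on the log2 scale. Uap1, which makes UDP-N-acetylglucosamine, rose by 0.77 ± 0.05 under miR-Exo and 0.22 ± 0.05 under NPPC-Exo. Of the 11 genes of this list, 5 rose and 2 fell under miR-Exo, and 3 rose and 4 fell under NPPC-Exo. Over all genes tested, 24.7% rose and 24.4% fell under miR-Exo, and 21.5% rose and 22.1% fell under NPPC-Exo. The interaction was called higher for 4 (Uap1, Ugdh, Gfpt2 and Uap1l1) and lower for none of them, beside 5.81% higher and 7.01% lower over all genes. The list median was 0.27 beside 0.03 over all genes, and 7 genes of the list did not pass the test.

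Of 14 other names of hyaluronan-binding genes 8 were tested, and 4 rose with erastin under miR-Exo and 4 under NPPC-Exo. Itih2 in both comparisons and Lyve1 under NPPC-Exo had 0 counts without erastin and could only be higher. Of the 6 genes with counts in both groups compared, 3 rose under miR-Exo and 2 under NPPC-Exo, beside 49.1% of all genes called under miR-Exo and 43.6% under NPPC-Exo. Hmmr, a hyaluronan-mediated motility receptor that is also a spindle protein of dividing cells, rose by 0.96 ± 0.07 under miR-Exo and 0.99 ± 0.07 under NPPC-Exo on the log2 scale (SE). Layn, a membrane receptor of hyaluronan, rose by 0.70 ± 0.10 under miR-Exo and 0.59 ± 0.10 under NPPC-Exo. Tnfaip6, which moves heavy chains onto hyaluronan, rose by 1.03 ± 0.12 under miR-Exo, and its value of 0.24 ± 0.12 under NPPC-Exo was not called. Itih2, a heavy chain gene, was at least 9.77-fold higher under miR-Exo and at least 8.22-fold higher under NPPC-Exo, taking 3 counts per library as the floor.

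Among other genes of hyaluronan breakdown, Cemip2, a cell-surface hyaluronidase, rose by 1.82 ± 0.10 under miR-Exo and 1.10 ± 0.09 under NPPC-Exo on the log2 scale (SE). Its interaction was 0.73 ± 0.13 (adjusted p = 0.00441). Hexa, which encodes a subunit of a lysosomal enzyme, fell at -0.85 ± 0.06 under miR-Exo and -0.91 ± 0.06 under NPPC-Exo. Of 6 genes tested, 3 rose and 2 fell under miR-Exo, and 2 rose and 2 fell under NPPC-Exo. The shares called over all genes were 49.1% under miR-Exo and 43.6% under NPPC-Exo. Cemip, a hyaluronan-depolymerizing protein gene, was higher in miR-Exo than in NPPC-Exo, by 1.47 ± 0.12 with erastin (adjusted p = 2.55e-06) and 1.10 ± 0.12 without it (adjusted p = 0.000140). That direction was the same as for Hyal1.

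**Figure D4:**
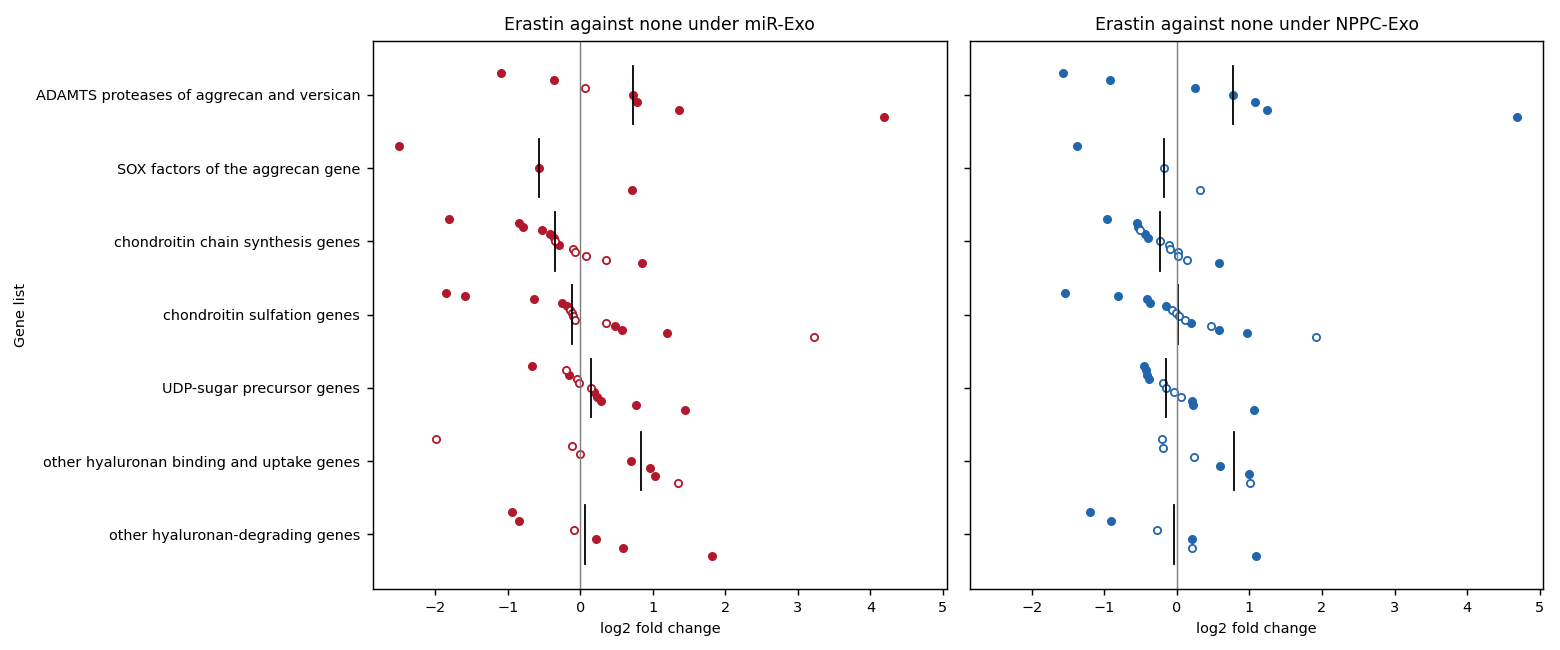
Log2 fold changes with erastin under miR-Exo and under NPPC-Exo for the tested genes of 7 related lists. Points are genes, filled where the adjusted p was under 0.05, and vertical lines are the list medians. Genes with 0 counts in a compared group are not drawn and enter the medians at their bound. Adamts8 at 4.19 and 4.69 is the point farthest right in the panels.

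Markers of other cells and of the nucleus pulposus also changed with erastin, some higher and some lower. The fibroblast and annulus sum, which was lower with erastin as Acan was, held Col1a1 and Col3a1 among its genes. Of its 10 tested genes, 3 rose and 6 fell under miR-Exo, and 1 rose and 6 fell under NPPC-Exo. Over all genes tested, 24.7% rose and 24.4% fell under miR-Exo, and 21.5% rose and 22.1% fell under NPPC-Exo. Postn, a matricellular protein gene, fell at -2.73 ± 0.05 under miR-Exo and -2.74 ± 0.05 under NPPC-Exo on the log2 scale (SE), and Lum, which encodes lumican, rose by 1.71 ± 0.08 under miR-Exo and fell at -0.33 ± 0.08 under NPPC-Exo. Of 8 nucleus pulposus markers tested, 2 rose and 4 fell under miR-Exo, and 3 rose and 3 fell under NPPC-Exo, with medians of -0.26 under miR-Exo and 0.06 under NPPC-Exo. Cd24, a surface glycoprotein gene, rose by 0.74 ± 0.10 under miR-Exo and 0.85 ± 0.10 under NPPC-Exo. Col2a1, the main fibrillar collagen gene of the nucleus pulposus, fell at -3.92 ± 0.22 under miR-Exo and -2.18 ± 0.21 under NPPC-Exo. Pax1, of the same list, fell at -2.56 ± 0.10 under miR-Exo and -2.05 ± 0.09 under NPPC-Exo. Over 4 matched endothelial markers the sum was 0.626 to 0.679 scaled FPKM in Erastin+miR-Exo, 0.306 to 0.316 in miR-Exo, 0.576 to 0.652 in Erastin+NPPC-Exo and 0.217 to 0.319 in NPPC-Exo, with Kdr and Tie1 at 0 in both groups with erastin. Of the 2 endothelial markers tested, Tek rose by 0.98 ± 0.20 under miR-Exo and 1.32 ± 0.20 under NPPC-Exo, and Vwf was not called. The part of a change in the mix of cells in the values of Acan and Vcan was not tested.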

How the data were processed

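RNA of 12 libraries in 4 groups of 3 was measured. The authors deposited raw counts per gene and, beside them, FPKM, both per the file headers. StringTie and the build mRatBN7.2 are named in the submitters' processing notes, while the aligner, the counting tool and its strand setting are not given there. Even numbers made up 57.3% of counts between 1 and 20, as if read mates had been counted singly, and halved counts were an alternative.

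Scaling used trimmed means of M values (factors 0.877 to 1.15). Counts were filtered with filterByExpr (15650 of 21071 genes kept) and fitted with edgeR's quasi-likelihood F test on 4 group means (R 4.3.3, edgeR 4.0.16, limma 3.58.1, DESeq2 1.42.0). P-values were two-sided and adjusted by Benjamini-Hochberg over all genes tested, with calls under 0.05. SE is the log2 fold change over the root of F. Scaled FPKM are the deposited FPKM divided by the library factor. Alternatives were other scalings, filters, tests and units, a replicate block and leaving out each library. The fit was tested on simulated data. The 10 genes and all lists were chosen with earlier results of these data known. In each list up to 4 genes per comparison with the smallest adjusted p are named, and 1 gene counted in a list is not reported here by name. Deviations from the group means of same-numbered libraries correlated above 0.1 in all 3 pairs of miR-Exo and NPPC-Exo (r = 0.404, 0.232 and 0.121) but not in all pairs of any other 2 groups. The labels do not pair these 2 groups. A paired fit of them was added after the data were seen, and since its pairing was picked from these same data, it does not show that the libraries are paired. At these depths low genes such as Has1 limit the precision.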

Additional observations from a re-analysis of the deposited data

Results flagged for a closer look

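For 5 of the 10 genes the change with erastin differed between the kinds of exosome in a test of the difference itself, edgeR's interaction term over 3 libraries per group. Of all genes tested, 12.8% were called in it, 5.81% higher and 7.01% lower. Vcan had an interaction of 0.88 on the log2 scale, with its rise larger under miR-Exo. Cd44 had 0.36, likewise with a larger rise under miR-Exo. Hapln3 had -1.13 and Hapln1 had -0.70, with the change with erastin more negative under miR-Exo for both. Hapln1 was also lower in miR-Exo than in NPPC-Exo without erastin, at -0.91. Hyal2 had -0.75, since it rose under NPPC-Exo and was not called under miR-Exo.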

How the results depend on the processing

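The number of the 10 genes called stayed within 1.5 times in every alternative run. It was 6 to 7 for erastin under miR-Exo and under NPPC-Exo, 5 to 7 for miR-Exo against NPPC-Exo with erastin, 3 to 4 without it and 4 to 6 for the interaction. As reported, the shares called over all genes were 49.1%, 43.6%, 31.3%, 10.7% and 12.8% in that order. With 1 library left out the counts were 6 to 6, 6 to 6, 6 to 6, 3 to 4 and 5 to 6 in the same order. With the replicate number as a block in all 12 libraries they were 6, 6, 6, 3 and 6. In the fit that paired miR-Exo with NPPC-Exo, added after the data were seen, 4 were called, Hyal2 being the gene gained, and calls over all genes fell to 1501. Over all pairs of groups r ran from -0.238 to 0.404, and 6 of 12 libraries were closest to their own number. Of 1095 single values 1036 kept direction and side of the threshold, 14 became called with their direction kept, 5 lost their call and 40 changed sign. Of 1320 counts of called genes over the related lists, 1194 stayed within 1.5 times. No value called as reported changed sign, and of the 40 changed values 37 were not called under the alternative either. In the order library size alone, limma on log2(FPKM + 1) and limma on log2(FPKM + 0.1), Hyal1 with erastin under miR-Exo, -0.0046 as reported, became 0.30, 0.27 and 0.29, each called, and Hyal2 there, -0.12 as reported, became 0.18, 0.16 and 0.17. With erastin under NPPC-Exo, Hapln3, -0.11 as reported, became 0.18, 0.13 and 0.16, and Has1, -0.19 as reported, became 0.094, 0.037 and 0.15. The Hyal1 interaction, -0.02 as reported, became 0.013 and 2.1e-05 with limma in the same order. The Has3 interaction, 0.0034 as reported, became -0.0060 with DESeq2 size factors, -0.0061 with the DESeq2 Wald test, -0.012 with no filter, -0.025 in the block and -0.014 with halved counts. With 1 library left out, the results that changed sign ranged from -0.41 to 0.34 for Has1 and -0.068 to 0.091 for Hyal1 with erastin under NPPC-Exo, and from -0.054 to 0.059 for Hyal1 under miR-Exo. For miR-Exo against NPPC-Exo without erastin they ranged from -0.026 to 0.0998 for Acan, -0.15 to 0.026 for Has2 and -0.12 to 0.47 for Has3, and with erastin from -0.19 to 0.39 for Has3. The interaction ranged from -0.39 to 0.31 for Has3 and -0.11 to 0.062 for Hyal1. Under the scaling by library size and both limma fits Hyal1 under NPPC-Exo was called at 0.30, 0.26 and 0.29. Hyal2 in miR-Exo against NPPC-Exo without erastin was called at 0.41, 0.38 and 0.42. The Acan call between the kinds of exosome with erastin was lost, at -0.13 in all 3. The Acan interaction was called in the block (adjusted p = 0.0355), without the second miR-Exo library (adjusted p = 0.0408) and without the second Erastin+NPPC-Exo library (adjusted p = 0.0233). Cd44 in miR-Exo against NPPC-Exo with erastin was called with DESeq2 (adjusted p = 0.0415) and without the first Erastin+NPPC-Exo library (adjusted p = 0.0184). The cause of these changes was not tested. Over all genes, the 1669 calls for miR-Exo against NPPC-Exo without erastin fell to 1042 without the second miR-Exo library and 970 without the second NPPC-Exo library. The 2006 interaction calls fell to between 1205 and 1300 without the first or second Erastin+miR-Exo, the first miR-Exo, the third Erastin+NPPC-Exo or the second NPPC-Exo library. Depth limits Has1 and Has3, whose SD reached 53.8% and 40.7% of the mean.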

Other observations

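The brain hyalectan genes Bcan and Ncan and the link protein gene Hapln2 had too few counts to be tested. Hapln4, a link protein gene of the nervous system, rose with erastin under miR-Exo by 1.03 ± 0.34 on the log2 scale (SE, adjusted p = 0.0239), and its value under NPPC-Exo was 0.19 ± 0.35. The interaction for Hapln4, 0.84 ± 0.49, was not called (adjusted p = 0.287). Lyve1, the lymphatic hyaluronan receptor gene, had 0 counts in NPPC-Exo and 123 counts over the 3 Erastin+NPPC-Exo libraries, which makes it at least 11.5-fold higher with erastin against a floor of 3 counts per library. Its value under miR-Exo was 1.34 ± 0.98 and was not called.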
